A study of Homo sapiens with 12 samples.

Results

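The 10 genes described here are 3 bone morphogenetic protein (BMP) ligands (BMP2, BMP4 and BMP7), 3 BMP receptors (BMPR1A, BMPR1B and BMPR2) and 4 genes that BMP signalling is known to switch on (ID1, ID2, ID3 and ATOH8). They were taken as a list of gene symbols, drawn up with earlier results of these data known, and matched to the Ensembl identifiers of the count files, which hold 58381 genes. All 10 were found and all 10 passed the filter on low counts that left 19162 genes to test. RNA was measured in VCaP, a human prostate cancer line from a bone metastasis that carries the TMPRSS2-ERG fusion. VCaP-T is a subclone selected to depend on testosterone (T) at 10 nM, used at passage 84. VCaP-CT was grown out of VCaP-T by long culture with 0.1 nM T and used at passage 73. Both were kept in RPMI 1640 with charcoal-stripped serum, so T was the added androgen. The 4 groups of 3 libraries were VCaP-T with 10 nM T, VCaP-T shifted to 0.1 nM T for 48 h (depletion), VCaP-CT with 0.1 nM T, and VCaP-CT shifted to 10 nM T for 48 h (rechallenge). Each line is a single subclone, so its differences from the other line are those of these cultures, and with RNA from whole cultures fewer cells expressing a gene and less RNA per cell cannot be told apart. The sources used here do not say whether the 3 libraries of a group came from separate cultures, so p-values measure the spread between libraries, which may be technical.

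BMP ligands are secreted proteins of the TGF-beta superfamily that bind a complex of type I receptors, such as the products of BMPR1A and BMPR1B, and the type II receptor made from BMPR2. The type II receptor activates the type I kinase, which phosphorylates SMAD1, SMAD5 and SMAD9, and these enter the nucleus with SMAD4 and act on genes such as ID1, ID2 and ID3. The ID proteins bind basic helix-loop-helix (bHLH) partners without binding DNA themselves and so keep those partners from DNA. In prostate cancer, BMP signalling is best known in bone metastasis, where tumour cells and bone-forming cells exchange BMP ligands and their antagonists.

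The libraries held 30.2 to 40.8 M counted fragments. The cells expressed the luminal prostate and VCaP markers checked, KLK2, KLK3 and ERG among them. Summed fibroblast markers were 199 to 260.1 normalized counts in the VCaP-T libraries at 10 nM T, 646 to 743 after depletion, 875 to 987 in VCaP-CT and 74.7 to 98.4 after rechallenge, most of it from LUM and COL1A1, while the means of COL1A2, DCN and PDGFRA were between 0 and 2.90 in every group. The 4 endothelium markers summed to 297 to 562 in the 12 libraries, nearly all of it VWF and PECAM1, with KDR at 0 in all of them and group means of CDH5 from 1.28 to 5.01. PECAM1 rose on depletion from 37.2 to 123 (log2 ratio 1.72, adjusted p = 8.84e-05 from edgeR), and its difference in response between the lines was -2.13 (adjusted p = 0.00142). The 5 blood markers summed to 41.7 at most, mainly CD14 and CD79A, with HBB at 0 in all libraries. The part of these markers in the results below was not tested.

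Replicate 2 of depleted VCaP-T stood apart and bore on the ID genes. Its log2 levels correlated across genes at 0.962 and 0.967 with the other depleted libraries, against 0.992 or more for every other pair within a group. Relative to the mean of replicates 1 and 3 it read short genes high and long genes low, with a median log2 difference of 0.73 for 1562 genes with under 2 kb of exon and -0.52 for 2630 genes with over 8 kb. ID1 (1233 bp of exon), ID3 (1797 bp) and ID2 (2205 bp) are the shortest members, and this library read them 1.23, 0.96 and 0.60 higher on the log2 scale. For BMPR2, with 11900 bp, the log2 difference was -0.70. BMP2, BMP7, BMPR1A, BMPR1B and ATOH8 differed by 0.22 or less in size. The values without this library are therefore given for each call that it changes, and for the ID genes on depletion. The part of RNA quality or of the preparation of this library was not tested.

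**Figure D1:**
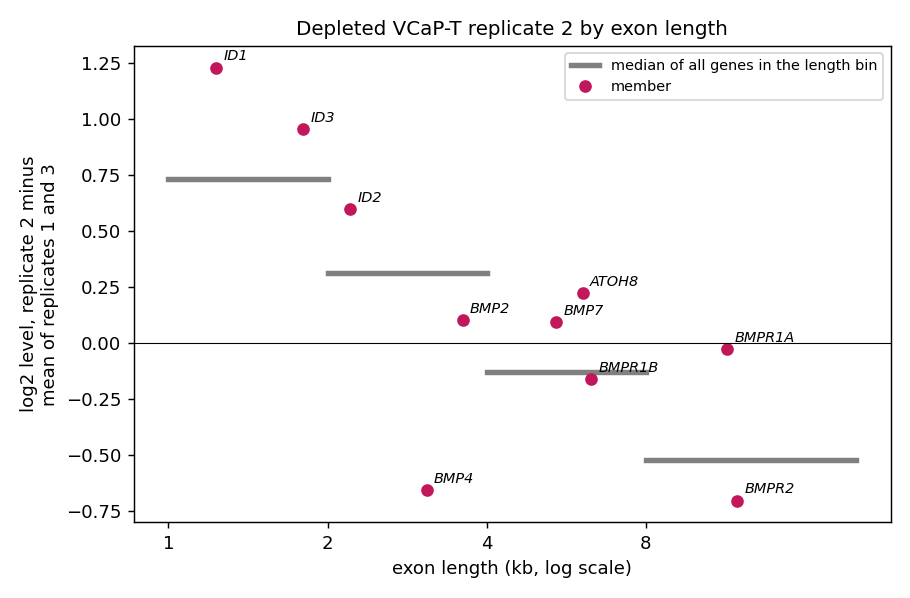
Log2 level of each of the 10 genes in depleted VCaP-T replicate 2 minus the mean of replicates 1 and 3 (y axis) against exon length in kb (x axis, log scale), with grey lines at the median of all genes with a mean of at least 100 normalized counts in each length bin. ID1, ID3 and ID2 lie at 1.23, 0.96 and 0.60 among the short genes and BMPR2 at -0.70 among the long ones, while BMP4, a low-count gene, lies at -0.65 away from the line of its bin.

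Of the ligands, BMP2 and BMP7 responded to T in both lines, in the same direction, and the lines differed in which of these 2 ligands they carried more of. Levels are given as normalized counts, which are counts scaled for library size and composition and are comparable between libraries for 1 gene. BMP2, an inducer of bone formation (ENSG00000125845.6, chromosome 20, 6767664 to 6780280, plus strand, GRCh38), had 169, 184 and 180.3 normalized counts in the VCaP-T libraries at 10 nM T and 865, 885 and 785 after depletion. VCaP-CT held 115, 112 and 113 at 0.1 nM T and 25.8, 14.5 and 25.6 after rechallenge. The 4 groups did not overlap, and the highest group mean, in depleted VCaP-T, was 38.4 times the lowest, in rechallenged VCaP-CT. BMP2 rose by 2.25 (SE 0.13) on the log2 scale on depletion (adjusted p = 6.14e-07 from edgeR) and changed by -2.37 (SE 0.17) on rechallenge (adjusted p = 1.62e-06). Low T thus went with more BMP2 RNA in each line, from starting levels that differed. At the same 0.1 nM T the level in VCaP-CT was lower than in depleted VCaP-T, with a log2 ratio of -2.90 (SE 0.13, adjusted p = 8.24e-09), and at 10 nM T it was lower than in VCaP-T by a similar amount, -3.02 (SE 0.17, adjusted p = 5.66e-08). The difference between the lines in the log2 response to T was 0.12 (SE 0.21, adjusted p = 0.789).

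BMP7, a ligand related to BMP2 that also acts through type I and II BMP receptors (ENSG00000101144.12, chromosome 20, 57168748 to 57266629, minus strand), followed the opposite order between the lines. Its normalized counts were 606, 571 and 506 for VCaP-T at 10 nM T, 799.5, 869 and 829 once depleted, 1924, 1919.7 and 1912 for VCaP-CT at 0.1 nM T, and 1112, 1164 and 1211 once rechallenged. No groups overlapped, and VCaP-CT was above VCaP-T at either T level. BMP7 rose on depletion by 0.57 (SE 0.08, adjusted p = 0.000558 from edgeR) and changed on rechallenge by -0.72 (SE 0.08, adjusted p = 4.92e-05), both on the log2 scale. The lines differed by 1.20 (SE 0.08) at 0.1 nM T and 1.05 (SE 0.08) at 10 nM T, with adjusted p = 2.77e-07 and 1.19e-06. Its difference in response between the lines was 0.15 (SE 0.11, adjusted p = 0.533).

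Compared per length, in fragments per kb of exon and per M counted fragments (FPKM), the balance of the 2 ligands turned over between the groups. The ratio of BMP7 to BMP2 was 2.10 ± 0.263 in VCaP-T at 10 nM T, 0.656 ± 0.0439 once depleted, 11.3 ± 0.140 for VCaP-CT at 0.1 nM T and 37.7 ± 13.4 after rechallenge (SD, n = 3 libraries each). Depleted VCaP-T was the group with more BMP2 than BMP7 RNA. BMP4, a ligand close in sequence to BMP2 (ENSG00000125378.15, chromosome 14, 53949736 to 53958761, minus strand), was near the limit of measurement, with raw counts of 7 to 31 in the 12 libraries. Its normalized counts were 7.43, 12.4 and 8.24 for VCaP-T at 10 nM T, 23.4, 13.6 and 20.6 once depleted, 26.5, 22.7 and 16 in VCaP-CT and 12.3, 15.6 and 12.8 after rechallenge. The log2 ratio on depletion was 1.05 (SE 0.32, adjusted p = 0.0342 from edgeR), and it was 1.22 (adjusted p = 0.00746) without depleted replicate 2. BMP4 was higher in VCaP-CT at 0.1 nM T than in VCaP-T at 10 nM T (1.21, SE 0.31, adjusted p = 0.00706), a call lost with DESeq2 in place of edgeR (adjusted p = 0.0150) and in 8 of the 12 fits that each left out 1 library (up to 0.0361).

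**Figure D2:**
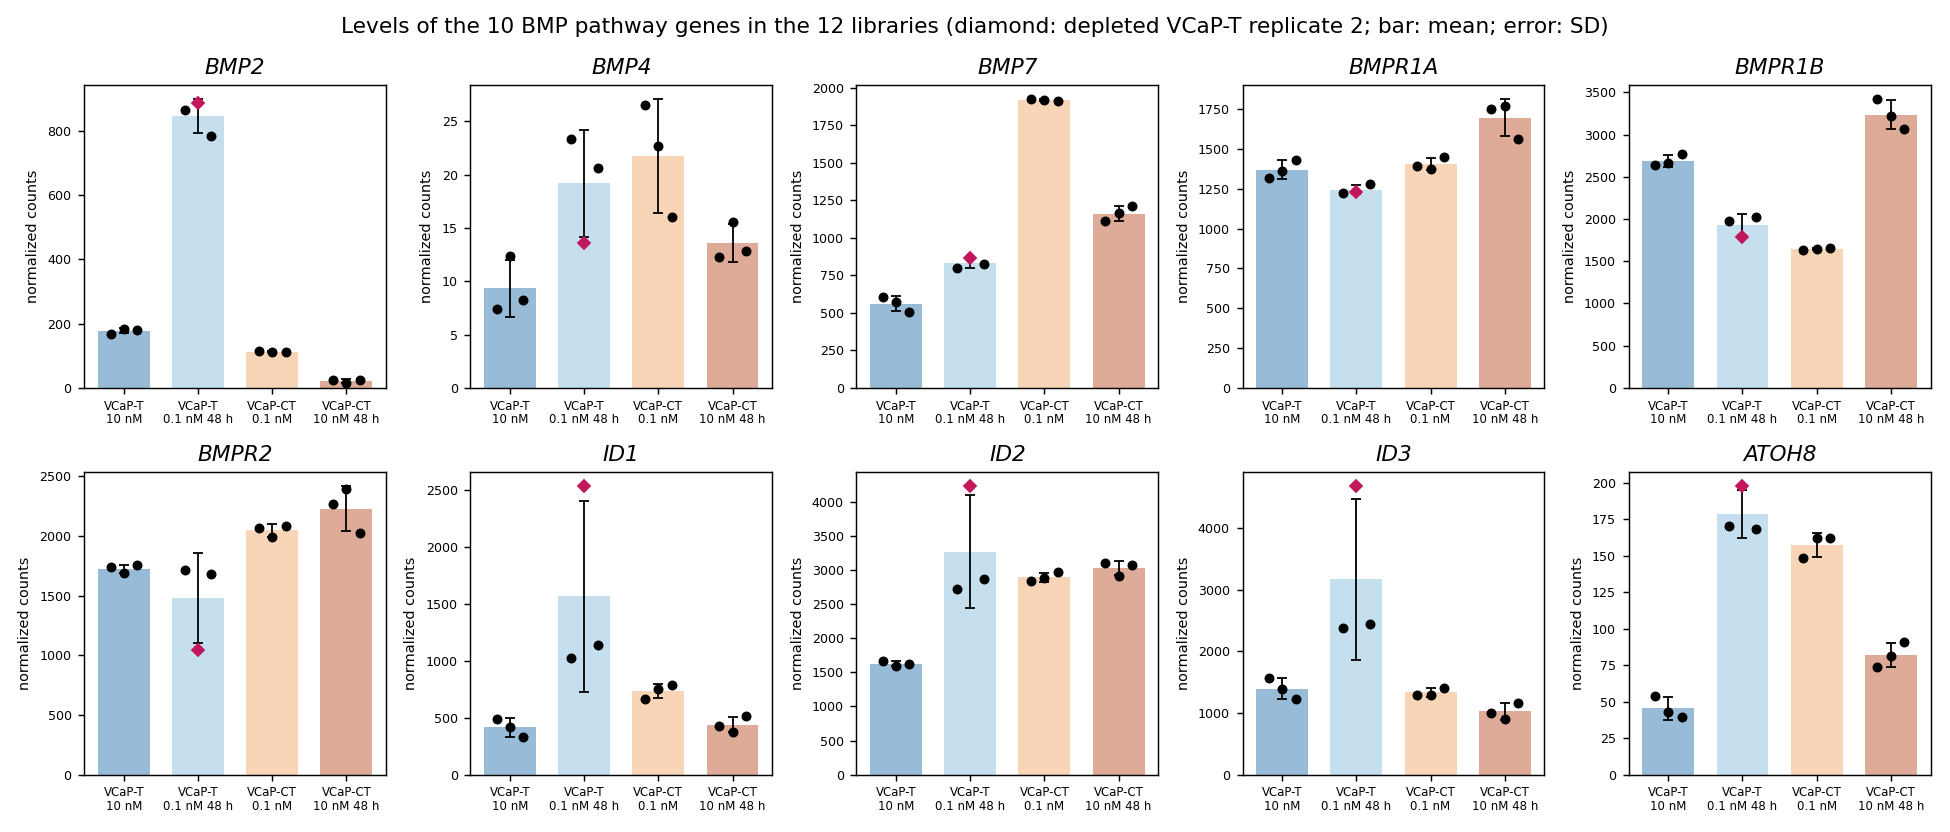
Normalized counts (y axes, each from 0) of the 10 genes in the 12 libraries by group (x axes), with points for libraries, bars for group means, error bars for the SD of 3 libraries and a diamond for depleted VCaP-T replicate 2. BMP2 is highest in depleted VCaP-T at a mean of 845, BMP7 in VCaP-CT at 0.1 nM T at 1919, and the diamond lies far above the other depleted libraries for ID1, ID2 and ID3.

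Among the receptors, BMPR1B changed with T and the other 2 moved little. BMPR1B, a type I receptor (ENSG00000138696.10, chromosome 4, 94757968 to 95158448, plus strand), had 2636, 2662 and 2769.7 normalized counts in the VCaP-T libraries at 10 nM T and 1981, 1789 and 2020.4 after depletion. In VCaP-CT it had 1636, 1640.5 and 1661 at 0.1 nM T and 3416, 3223 and 3068 after rechallenge. Both groups at 10 nM T were above both groups at 0.1 nM T, the reverse of BMP2 and BMP7. BMPR1B was lower on depletion, at -0.48 (SE 0.07, adjusted p = 0.000791 from edgeR) on the log2 scale, and rose on rechallenge by 0.98 (SE 0.07, adjusted p = 2.24e-06). The response to T in VCaP-T minus that in VCaP-CT was -0.50 (SE 0.10, adjusted p = 0.0244), which missed the threshold of 0.01, and passed it without depleted replicate 2 (-0.55, adjusted p = 2.39e-05).

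BMPR1A, the other type I receptor (ENSG00000107779.13, chromosome 10, 86756601 to 86932838, plus strand), had 1314, 1361 and 1432 in VCaP-T at 10 nM T and 1225, 1227 and 1278 after depletion. In VCaP-CT it had 1391, 1375 and 1449.6, and 1752, 1770.4 and 1561 after rechallenge. The highest group mean was 1.36 times the lowest. The log2 ratio was -0.14 (SE 0.07, adjusted p = 0.202 from edgeR) on depletion and 0.27 (SE 0.07, adjusted p = 0.0190) on rechallenge, the latter passing without depleted replicate 2 (adjusted p = 0.000571). The rechallenge value also passed with DESeq2 on all 12 libraries (0.28, adjusted p = 0.00184) and in edgeR on the 6 libraries compared (0.26, adjusted p = 0.00131). At 10 nM T it was higher in VCaP-CT than in VCaP-T by 0.31 (SE 0.07, adjusted p = 0.00597), a call lost in 8 of the 12 fits that each left out 1 library (adjusted p = 0.0102 to 0.0325).

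BMPR2, the type II receptor (ENSG00000204217.13, chromosome 2, 202376936 to 202567751, plus strand), had 1738, 1689 and 1753 normalized counts in the VCaP-T libraries at 10 nM T and 1714, 1043 and 1682 after depletion. VCaP-CT had 2067, 1988 and 2082, and 2268, 2395 and 2025 after rechallenge. It passed in no comparison in the main fit on all 12 libraries. With no filter on low counts it passed at 0.1 nM T, 0.48 higher in VCaP-CT (adjusted p = 0.00667 from edgeR). The low depleted value, 1043, came from replicate 2. Without that library the log2 fold change on depletion went from -0.22 (SE 0.15, adjusted p = 0.315) to -0.03 (SE 0.06, adjusted p = 0.781), and VCaP-CT was higher than VCaP-T by 0.27 at 0.1 nM T (adjusted p = 0.000918) and by 0.37 at 10 nM T (adjusted p = 1.11e-05). Per length, BMPR1B was the most abundant of the 3 receptors in each group, at 3.55 ± 0.0661 times BMPR1A in VCaP-T at 10 nM T, 2.81 ± 0.151 once depleted, 2.12 ± 0.0431 for VCaP-CT at 0.1 nM T and 3.46 ± 0.144 after rechallenge (SD, n = 3). BMPR2 came next, and in depleted VCaP-T its 3.53 ± 0.902 FPKM did not differ from the 3.09 ± 0.0740 of BMPR1A beyond the spread. Without replicate 2 (2.49 FPKM for BMPR2) it stood above, at 4.09 and 4.01 against 3.05 and 3.18.

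**Figure D3:**
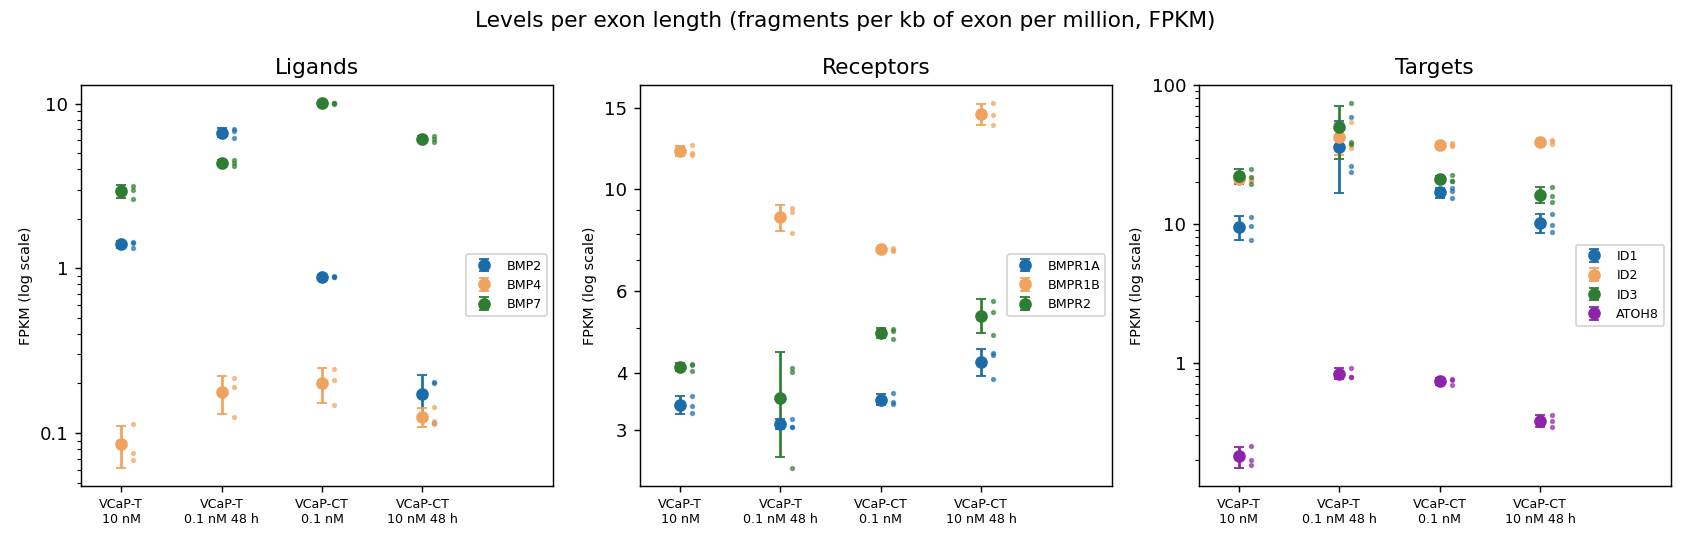
FPKM (y axes, log scale) of the 3 ligands, 3 receptors and 4 targets in the 4 groups (x axes), with large points for means, error bars for the SD and small points for the 3 libraries. BMP7 lies above BMP2 in each group but depleted VCaP-T, BMPR1B lies above the other receptors in all groups, and ATOH8 lies below the ID genes, at means of 0.212 to 0.834.

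The 4 targets were all higher after depletion in VCaP-T, and the promoters of these genes, which moved together there, are shown as the 250 bases before the RefSeq start (GRCh38.p14, 5′ to 3′ on the gene's strand). ID1 is at chr20:31605039-31605288 on the plus strand, ID2 at chr2:8681806-8682055 on the plus strand, ID3 at chr1:23559502-23559751 on the minus strand and ATOH8 at chr2:85753741-85753990 on the plus strand. Capitals mark the 1 match to 3 short motifs searched on both strands.
ID1: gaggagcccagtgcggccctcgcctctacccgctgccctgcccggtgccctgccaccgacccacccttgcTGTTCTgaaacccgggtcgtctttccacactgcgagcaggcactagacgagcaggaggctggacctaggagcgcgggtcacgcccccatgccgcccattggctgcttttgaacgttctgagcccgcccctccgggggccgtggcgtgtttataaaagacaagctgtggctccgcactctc
ID2: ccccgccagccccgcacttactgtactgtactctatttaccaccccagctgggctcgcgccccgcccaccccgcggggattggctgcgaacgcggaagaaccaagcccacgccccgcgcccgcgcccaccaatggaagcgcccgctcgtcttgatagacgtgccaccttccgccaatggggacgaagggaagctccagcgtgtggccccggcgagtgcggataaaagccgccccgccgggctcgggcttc
ID3: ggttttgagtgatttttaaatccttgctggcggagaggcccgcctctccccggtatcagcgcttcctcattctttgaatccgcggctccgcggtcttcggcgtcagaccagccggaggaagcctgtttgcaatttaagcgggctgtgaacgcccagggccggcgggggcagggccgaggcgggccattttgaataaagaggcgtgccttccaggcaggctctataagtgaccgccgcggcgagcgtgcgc
ATOH8: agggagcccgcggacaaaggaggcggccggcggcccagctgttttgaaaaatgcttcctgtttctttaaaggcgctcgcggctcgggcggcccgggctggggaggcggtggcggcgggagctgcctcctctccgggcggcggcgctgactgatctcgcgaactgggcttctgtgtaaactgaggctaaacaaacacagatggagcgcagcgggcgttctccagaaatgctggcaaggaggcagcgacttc
The first motif was GGCGCC, a SMAD-binding element of BMP-responsive genes that is its own reverse complement. The second was CAGACA, which holds the SMAD box and reads as TGTCTG on the opposite strand. The third was AGAACA, the core letters bound by several steroid hormone receptors, which read as TGTTCT on the opposite strand. The capitals in ID1 are AGAACA read on the other strand, starting at position -180 from the start of the gene, and the ID2, ID3 and ATOH8 windows held none of the 3. Only these 250 bases were searched, so motifs further from the start would not be seen, and their absence from a gene cannot be read from this. Of 35116 RefSeq windows of this length, 16.4% held GGCGCC, 13.6% CAGACA and 12.4% AGAACA. The table held 12 windows for 8 of the 10 genes. Among the members that are no targets, the BMPR2 window held GGCGCC at -147 and CAGACA at -103, 1 of 3 BMPR1B windows held CAGACA at -180 and -45, the 3 BMP4 windows held GGCGCC at -232 in 1 and CAGACA at -47 in another, and the BMPR1A window held none of the 3 motifs.

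ID1, which in many cell types is among the fastest genes to answer BMP (ENSG00000125968.8, chromosome 20, 31605283 to 31606515, plus strand), had 490.5, 422 and 330.3 normalized counts in the VCaP-T libraries at 10 nM T and 1026, 2534 and 1135 after depletion. VCaP-CT had 666, 748 and 783 at 0.1 nM T and 429, 378 and 513 after rechallenge. All depleted libraries were above all others, and replicate 2 was more than the sum of the other 2. ID1 rose on depletion by 1.92 (SE 0.30, adjusted p = 0.000922 from edgeR) on the log2 scale, and by 1.39 (SE 0.12, adjusted p = 7.71e-08) without replicate 2. The rechallenge value was -0.73 (SE 0.29, adjusted p = 0.0939), and without depleted replicate 2, which is in neither group compared here, the same -0.73 passed (SE 0.12, adjusted p = 4.66e-05). VCaP-CT at 0.1 nM T was lower than depleted VCaP-T, with a log2 ratio of -1.09 (SE 0.29, adjusted p = 0.00898), or -0.56 (adjusted p = 0.000541) without replicate 2. That call was lost in 9 of the 12 fits that each left out 1 library (adjusted p = 0.0118 to 0.0390). At 10 nM T the lines differed by 0.09 (adjusted p = 0.841).

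ID3 (ENSG00000117318.8, chromosome 1, 23557918 to 23559794, minus strand), a second inhibitor of bHLH factors, had 1575, 1387 and 1228 in VCaP-T at 10 nM T and 2385, 4682 and 2441 after depletion. In VCaP-CT it had 1298, 1292 and 1412, and 1004, 903 and 1169 after rechallenge. Its VCaP-CT level at 0.1 nM T lay within the range of VCaP-T at 10 nM T, with a log2 ratio of -0.07 (adjusted p = 0.833 from edgeR). ID3 rose on depletion by 1.18 (SE 0.22, adjusted p = 0.00307), or by 0.79 (SE 0.09, adjusted p = 1.84e-06) without replicate 2. It missed the threshold without any 1 of the VCaP-T libraries at 10 nM T (adjusted p = 0.0101 to 0.0204). At 0.1 nM T it was lower in VCaP-CT than in depleted VCaP-T, at -1.25 (SE 0.22, adjusted p = 0.000736), or -0.85 (adjusted p = 2.09e-07) without replicate 2. The rechallenge value was -0.38 (SE 0.22, adjusted p = 0.253), which passed without depleted replicate 2 (SE 0.09, adjusted p = 0.00151).

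ID2 (ENSG00000115738.9, chromosome 2, 8678845 to 8684453, plus strand), a related inhibitor of bHLH factors, had another pattern. Its normalized counts were 1664, 1591 and 1619.6 for VCaP-T at 10 nM T, 2717, 4229 and 2865 once depleted, 2832, 2885 and 2966 for VCaP-CT at 0.1 nM T, and 3108, 2910.1 and 3071 after rechallenge. VCaP-T at 10 nM T was the low group and both VCaP-CT groups lay near the depleted cells. ID2 rose on depletion by 1.01 (SE 0.14, adjusted p = 0.000356 from edgeR), or by 0.78 (SE 0.05, adjusted p = 8.52e-10) without replicate 2, and on rechallenge the log2 ratio was 0.07 (SE 0.13, adjusted p = 0.772). At 10 nM T it was higher in VCaP-CT by 0.90 (SE 0.14, adjusted p = 0.000253). The difference in response between the lines was -1.07 (SE 0.19, adjusted p = 0.0111), just short of the threshold, and -0.85 (SE 0.07, adjusted p = 7.46e-08) without replicate 2. An antisense RNA, ID2-AS1, overlaps 38 bp (1.72%) of the exons of ID2, and the counting used no strand.

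ATOH8, a bHLH transcription factor known as a BMP target in endothelium and liver (ENSG00000168874.12, chromosome 2, 85751344 to 85788066, plus strand), was the least abundant target per length. It had 54.1, 42.8 and 39.3 normalized counts in the VCaP-T libraries at 10 nM T, 170.3, 198 and 168 once depleted, 148, 162 and 162 for VCaP-CT at 0.1 nM T, and 73.8, 81.0 and 90.7 after rechallenge. It was high in both groups at 0.1 nM T, and rechallenged VCaP-CT stayed above VCaP-T at 10 nM T. ATOH8 rose on depletion by 1.98 (SE 0.15, adjusted p = 5.11e-06 from edgeR) and changed by -0.94 on rechallenge (SE 0.14, adjusted p = 0.000487). At 0.1 nM T the lines differed by -0.18 (adjusted p = 0.304), and at 10 nM T by 0.86 (SE 0.16, adjusted p = 0.00102). The difference in response was -1.04 (SE 0.21, adjusted p = 0.0211), and -0.97 (SE 0.19, adjusted p = 0.00201) without depleted replicate 2.

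Per length, ID2 and ID3 were level in VCaP-T at 10 nM T, at 20.9 ± 0.473 and 22.1 ± 2.75 FPKM (SD, n = 3), with ID1 below them at 9.54 ± 1.85. After depletion the 3 ID genes could not be ordered beyond the spread of the 3 libraries. Without replicate 2, ID1 had 23.6 and 26.1 FPKM, below ID2 at 35 and 36.9 and ID3 at 37.7 and 38.5. In VCaP-CT the order was ID2, ID3 and ID1 at either T level, at 37.2 ± 0.873, 21.1 ± 1.06 and 16.9 ± 1.39 at 0.1 nM T and 39.0 ± 1.36, 16.2 ± 2.12 and 10.1 ± 1.57 after rechallenge. With both lines at 10 nM T, ID2 was the one of the 3 that stood higher in VCaP-CT.

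Counted over the 10 genes, 6 rose and 1 fell on depletion at an adjusted p under 0.01 (edgeR), where 6.15% of all genes tested rose and 3.83% fell (9.97% in all). Of these, BMP2, ID1, ID2, ID3 and ATOH8 also passed 2 further thresholds, a log2 ratio above 1 and group medians more than 13 normalized counts apart, which 3.14% of all genes did in either direction and 2.46% upwards. Without depleted replicate 2 the counts were 8 and 4, with ID2 and ID3 under the fold threshold and BMP4 past it, and in that fit 27.1% of the 19649 genes tested passed and 3.65% passed every threshold. The libraries of the 2 groups did not overlap for 9 of the 10 genes, against 38.0% of all genes. The median log2 fold change on depletion was 1.03 over the 10 genes and 0.04 over all genes tested. When depletion was fitted on its own 6 libraries, of which replicate 2 is 1, 2 of the 10 passed, BMP2 (adjusted p = 0.000581) and ATOH8 (adjusted p = 0.00356).

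On rechallenge 1 of the 10 genes rose (BMPR1B) and 3 fell (BMP2, BMP7 and ATOH8), against 7.07% and 7.19% of all genes (14.3% in all), and without depleted replicate 2 the number that passed was 7, with BMPR1A, ID1 and ID3 added, where 36.6% of all genes passed. BMP2 alone also passed the fold and median thresholds (5.14% of all genes, 3.30% downwards), with BMPR1B at 0.98 just under the fold. Groups did not overlap for 8 of the 10 genes, against 55.7% of all genes. The median log2 ratio was -0.53 over the 10 genes and -0.02 over all genes. The 2 responses share no library.

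**Figure D4:**
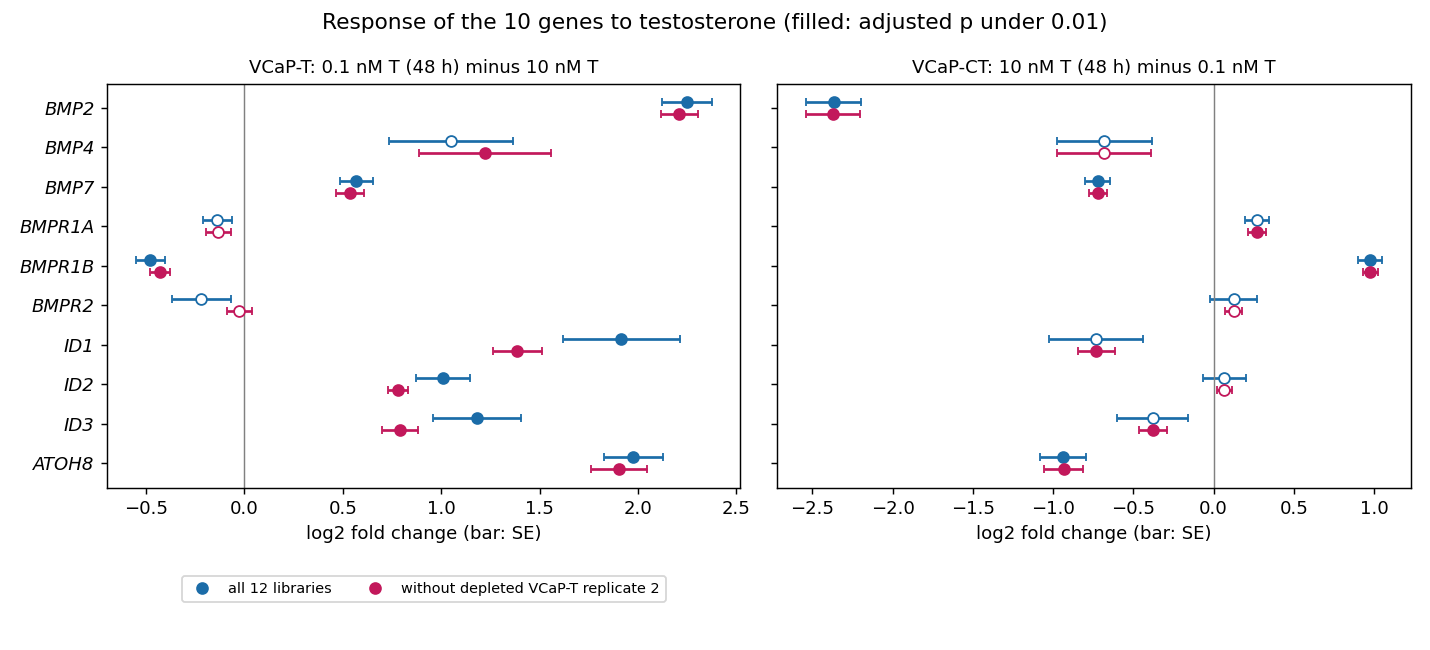
Log2 fold change (x axes, bars for SE) of the 10 genes on depletion in VCaP-T (left) and on rechallenge in VCaP-CT (right), from the fit on all 12 libraries (blue) and without depleted VCaP-T replicate 2 (red), filled where the adjusted p was under 0.01. On depletion ID1, ID2 and ID3 go from 1.92, 1.01 and 1.18 to 1.39, 0.78 and 0.79 without that library, and on rechallenge ID2 stays at 0.07.

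The difference in response between the lines passed the threshold for 0 of the 10 genes in edgeR, against 0.965% of all genes. At an unadjusted p under 0.05 there were 5, ID2, ATOH8, BMPR1B, ID1 and ID3. This level was not counted over all genes, and 12 of the 43 genes tested in the 5 lists below reached it. For ID1 the difference was -1.18 (SE 0.41, adjusted p = 0.178), or -0.65 (adjusted p = 0.0154) without depleted replicate 2. For ID3 it was -0.80 (SE 0.31, adjusted p = 0.231), or -0.41 (adjusted p = 0.0368) without that library. DESeq2 passed 3, ID2 (adjusted p = 3.72e-05), BMPR1B (0.000105) and ATOH8 (0.00171), in a fit where 576 of 37997 genes passed. The same 3 passed in edgeR without depleted replicate 2, a fit in which 7.38% of all genes did. All 3 differences were negative, that is, the log2 change from 0.1 to 10 nM T was lower in VCaP-T than in VCaP-CT. ID2 changed in VCaP-T (1.01 on depletion) with a value of 0.07 on rechallenge, ATOH8 changed by 1.98 on depletion and -0.94 on rechallenge, and BMPR1B by -0.48 and 0.98.

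Between the lines in the medium each was kept in, where line and T level differ together and cannot be told apart, 4 of the 10 genes were higher in VCaP-CT (BMP7, ATOH8, ID2 and BMP4) and 2 lower (BMPR1B and BMP2), against 14.8% and 15.7% of all genes (30.6% in all). BMP7 at 1.77 (SE 0.08, adjusted p = 9.25e-09 from edgeR), ATOH8 at 1.80 (SE 0.15, adjusted p = 1.50e-06) and BMP4 passed the fold and median thresholds as well (12.7% of all genes, 5.61% upwards). BMPR1B differed by -0.71 (SE 0.07, adjusted p = 8.51e-06), BMP2 by -0.65 (SE 0.13, adjusted p = 0.00173), ID2 by 0.83 (SE 0.14, adjusted p = 0.000355) and ID1 by 0.82 (SE 0.29, adjusted p = 0.0385). Without depleted replicate 2, 8 passed, with ID1 (0.83, adjusted p = 5.52e-06) and BMPR2 (0.25, adjusted p = 0.000687) added, where 53.4% of all genes passed. Groups did not overlap for 8 of 10 genes, against 69.0% of all genes.

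At matched T of 0.1 nM, 1 of the 10 genes was higher in VCaP-CT (BMP7) and 3 lower (BMP2, ID1 and ID3), against 29.5% of all genes that differed in either direction, and all 4 passed the fold and median thresholds (12.3% of all genes, 3.62% upwards and 8.68% downwards). Without depleted replicate 2 the numbers were 6 and 2, with BMPR1B (-0.28, adjusted p = 0.000166) and BMPR2 added and with ID1 and ID3 under the fold threshold, where 47.6% of all genes passed and 12.6% passed every threshold. At 10 nM T, 4 were higher in VCaP-CT (BMP7, ID2, ATOH8 and BMPR1A) and BMP2 was lower, against 12.0% and 13.2% of all genes (25.2% in all), with BMP2 and BMP7 past the fold and median thresholds (10.2% of all genes, 3.17% upwards and 7.08% downwards). Without depleted replicate 2, 8 passed there in edgeR, with BMPR1B (0.27, adjusted p = 5.54e-05), BMPR2 and ID3 (-0.44, adjusted p = 0.000262) added. In that fit 47.9% of all genes passed at 10 nM T. Groups did not overlap for 8 of 10 genes at either T level, against 52.3% of all genes at 0.1 nM T and 61.7% at 10 nM T. At matched T the 2 groups still differ in how long they had been at it, 48 h in 1 line and long-term in the other.

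Other genes of the pathway were read from lists drawn up by role. Of 14 other BMP and GDF ligands 5 were expressed enough to test, and 0 of them passed on depletion or rechallenge, or had an unadjusted p under 0.05 there (edgeR). The highest of these 14 by normalized counts, BMP8B, had means of 568, 534, 468 and 392 in VCaP-T at 10 nM T, depleted VCaP-T, VCaP-CT and rechallenged VCaP-CT. Of 10 other receptors and coreceptors 9 were tested: ENG, a coreceptor, fell on depletion (log2 fold change -0.48, adjusted p = 0.00237 from edgeR), and 4 rose on rechallenge, ACVR1 (0.75, adjusted p = 0.000552), RGMB (0.51), ENG (0.51) and RGMA (1.28). ENG had 1579 normalized counts in the VCaP-T libraries at 10 nM T, 1129 after depletion, 1336 in VCaP-CT and 1900.5 after rechallenge, high at 10 nM T in each line as BMPR1B was. RGMB shares 45.6% of its exon length with other genes, so its value is uncertain.

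Of 16 extracellular antagonists and modulators, which bind BMP ligands outside the cell, 8 were tested. On depletion 1 of the 8 fell past every threshold in edgeR, with 6 at an unadjusted p under 0.05. On rechallenge 0 of the 8 passed, with 1 at an unadjusted p under 0.05. NOG, the antagonist noggin, had group means of 0 to 0.354. With each line in the medium it was kept in, 2 of the 8 were higher and 3 lower in VCaP-CT. FSTL1 was higher, with 36825 against 11529.8 (1.68, adjusted p = 2.20e-09), while TWSG1, with 1800.4 against 5018 (-1.48, adjusted p = 6.73e-09), NBL1 (-1.59) and GREM1, with 1.82 against 36.1 (-4.19), were lower. NBL1 shares 17.8% of its exon length with other genes.

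All 13 SMADs and intracellular regulators were tested. SMAD7, an inhibitory SMAD that itself answers TGF-beta and BMP signals, rose on depletion from 216 to 393 normalized counts (0.86, SE 0.08, adjusted p = 3.26e-05 from edgeR) and fell on rechallenge from 589.6 to 411 (log2 fold change -0.52, adjusted p = 0.000602), the same directions as ATOH8. SMAD6, the inhibitory SMAD tied most to BMP, had 506, 534, 513 and 489 in the 4 groups and passed in no comparison. TOB1 was the other gene of this list that passed on rechallenge (0.59, adjusted p = 0.000150). In VCaP-CT at 0.1 nM T, 5 of the 13 were higher than in VCaP-T at 10 nM T, SMAD7 (1.45), BAMBI, a decoy receptor (1.90), SMAD4 (0.60), SMAD5 (0.54) and SMAD9 (0.55), and TOB1 was lower (-0.36). Of 10 other targets and bHLH partners 8 were tested, and ID4 was the 1 that passed on depletion, from 4003 to 5884 (0.56, SE 0.10, adjusted p = 0.00250). ID4, the remaining ID gene, had 2324 in VCaP-CT before rechallenge and 1866 after it, below both VCaP-T groups. The ID3 means, 1334 and 1025, were also below both, though the first lay within the range of the undepleted VCaP-T libraries. ID1 and ID2 did not have this order. Of the 8 tested genes in the list with ID4, 0 passed on rechallenge, with 2 at an unadjusted p under 0.05. For the difference in response, 0 of the 43 genes tested in the 5 lists passed in edgeR, with 12 at an unadjusted p under 0.05.

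The genes whose 4 group means were most like those of a member that passed all thresholds on depletion or rechallenge were taken from 10843 protein-coding genes with a mean of at least 100 normalized counts, by the root mean square difference of log2 means centred per gene. For BMP2 they were OPTN (0.0926), N4BP2L1 (0.224) and LDLRAD1 (0.324), for ID1 STON1 (0.0876), BLNK (0.153) and TNFSF10 (0.154), and for ID2 IMMP2L (0.0907), MAFF (0.0971) and GLYATL1 (0.101). For ID3 they were DEGS2 (0.0838) and PAPSS1 (0.103), and for ATOH8 PLA2G5 (0.125), BIRC3 (0.146) and NRIP3 (0.202). With 4 group means per gene, these distances only describe.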

How the data were processed

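Poly(A) RNA was measured in 12 libraries of 4 groups, taken from the sample labels. The count values, as deposited, are whole fragments per gene made by the authors from TruSeq stranded libraries with STAR 2.5.4b on GRCh38 and featureCounts 1.6.2 on Gencode release 28. Per the file headers, strand was not used and fragments on several genes or places were left out. The authors' table of DESeq2 1.24.0 normalized values was not used here.

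Counts were fitted in R 4.3.3 with edgeR 4.0.16 (quasi-likelihood test, TMM scaling, default low-count filter, 1 model of 4 groups, Benjamini-Hochberg over all 19162 genes tested). A gene passed at an adjusted p under 0.01. The further thresholds, an absolute log2 ratio above 1 and medians more than 13 normalized counts apart (not used for the difference in response), follow the methods of the study. The SE is the log2 fold change divided by the root of the F statistic. Signed values are the first group minus the second. The log2 levels of single libraries used a pseudocount of 1. The depth was 30.2 to 40.8 M fragments. The fits were also run on simulated data, which held no length-dependent shift like that of depleted replicate 2 and so do not bear on it. DESeq2 1.42.0, RLE scaling, 2 other filters, each comparison's own 6 libraries, a replicate block and leaving out each library were tried as alternatives.

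The 10 genes and all lists were chosen with earlier results of these data known. Every member was counted in each comparison, though the log2 ratios of some that did not pass are not printed. The rules also named up to 4 genes of each other list with the smallest adjusted p, and any gene overlapping a member. They further named the 3 genes most like each member that passed all thresholds on depletion or rechallenge. BMP8B, NOG, SMAD6, SMAD9 and the cell type markers were named after their values were seen. A few genes that these rules would name are not reported here. RefSeq windows came from a table for GRCh38.p14.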

Additional observations from a re-analysis of the deposited data

How the results depend on the processing

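The depletion response of the ID genes rests in size on replicate 2 of the depleted cells, and BMP4 is limited by its low counts. Of the 7 members that passed on depletion, 2 did when only its own 6 libraries were fitted, and the members past every threshold went from 5 to 2. For rechallenge the same fit passed 7 in place of 4, for the lines at 0.1 nM T 2 in place of 4 (2 in place of 4 past every threshold) and for the lines at 10 nM T 8 in place of 5. For the difference in response, DESeq2 passed 3 (2 past the fold too) and no filter on low counts 1 (1), in place of 0. Leaving out 1 library at a time gave 6 to 8 members on depletion (3 to 5 past every threshold), 4 to 7 on rechallenge (1 to 3), 5 to 8 for the lines in maintenance medium (2 to 3), 3 to 6 at 0.1 nM T (2 to 4), 4 to 8 at 10 nM T (1 to 2) and 0 to 3 for the difference in response (0 to 1). A count moved by over 1.5 times without VCaP-T 10 nM T replicate 2 (3 past every threshold on depletion), rechallenged replicate 3 (3 on rechallenge), VCaP-T 10 nM T replicate 3 (1 at 10 nM T), depleted replicate 1 (1 for the difference in response, ID2, adjusted p = 0.00420) and depleted replicate 2 (7 on rechallenge, 8 at 10 nM T, 3 for the difference in response and 2 past every threshold at 0.1 nM T). Of all 19162 genes tested, 1911 passed on depletion, 2732 on rechallenge, 5857 in maintenance medium, 5647 at 0.1 nM T and 4828 at 10 nM T. With the own 6 libraries these were 283 of 18293, 6981 of 17793, 10491 of 18409, 2932 of 18369 and 8334 of 17972. With 1 library left out they were 906 to 5320, 1674 to 7184, 4359 to 10497, 4178 to 9348 and 3438 to 9415. Those fits tested 19574 to 19720 genes. For the difference in response 185 passed, or 576 with DESeq2, 83 with a replicate block and 69 to 1451 with 1 library left out. BMP2 in maintenance medium missed without VCaP-T 10 nM T replicate 2 (adjusted p = 0.0101).

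Among single genes, the calls of BMP4 in maintenance medium (adjusted p = 0.0150 with DESeq2, 0.0112 without the filter), ID1 at 0.1 nM T and BMPR1A at 10 nM T (0.0391 without the filter) were lost under several alternatives, and that of ID3 on depletion without any 1 of the 3 VCaP-T libraries at 10 nM T (0.0101 to 0.0204). Values that changed sign had not passed. With 1 library left out, these ranged from -0.147 to 0.0304 for ID3 in maintenance medium (above 0 without VCaP-T 10 nM T replicate 1), from -0.00633 to 0.338 for BMP4 at 0.1 nM T (below 0 without depleted replicate 2 or VCaP-CT 0.1 nM T replicate 1, at -0.00447), from -0.296 to 0.0556 for ID2 at 0.1 nM T (above 0 without depleted replicate 2), from -0.0486 to 0.227 for ID1 at 10 nM T (below 0 without VCaP-T 10 nM T replicate 3 or rechallenged replicate 3, at -0.0362), from -0.100 to 0.214 for BMPR2 in the difference in response (below 0 without depleted replicate 2) and from -0.111 to 0.259 for BMP2 there (below 0 without rechallenged replicate 2). The cause of these changes was not tested. Over single genes, 668 of the values without 1 library kept direction and call, 29 lost the call, 15 gained it and 8 changed sign, and 314 of the other alternatives kept both, with 13 lost, 17 gained and 0 changed in sign.

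The labels number the replicates of each group alike, but deviations from the group means of same-numbered libraries correlated at -0.157 to 0.0511 over 18 pairs, so the numbers were not taken to pair libraries. A replicate block left 7 members on depletion, 4 on rechallenge, 5 in maintenance medium, 3 at 0.1 nM T, 4 at 10 nM T and 0 for the difference in response. Of all 19162 genes tested, 1321, 2121, 5163, 4939, 4192 and 83 passed with the block, in the same order. The block lost the calls of BMP4 in maintenance medium (adjusted p = 0.0149 from edgeR), ID1 at 0.1 nM T (0.0172) and BMPR1A at 10 nM T (0.0169).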
